A study of Mus musculus with 10 samples.

Results

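The transcripts described here are those of histones and histone variants, the proteins around which DNA is wrapped, in mouse germinal vesicle oocytes. They were taken as all probe sets with a single gene symbol, and that symbol a histone one (starting with H1f, H2ac, H2bc, H2az, H2ax, H3f, H3c or H4c, or an older form such as Hist1h or H2af). The rule used names only, and it found 25 of the 45037 probe sets on the array, covering 18 genes. They were divided into 9 probe sets of linker histones, 9 of replication-dependent core histones and 7 of variants. Expression was measured on single-colour Affymetrix-type arrays in 5 samples of wild type oocytes and 5 of CTCF-depleted oocytes, all at the germinal vesicle stage, in which meiosis is halted in its first prophase and the nucleus is still whole. CTCF, a DNA-binding zinc finger protein, acts at insulators and shapes chromatin loops. The labels do not say how CTCF was depleted, give no strain or age, and do not say how many oocytes or animals went into a sample, so the p-values rest on array-to-array spread alone, part or all of which could be technical. The comparison asks which histone transcripts differ in their level once CTCF is depleted.

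Core histones H2A, H2B, H3 and H4 form the nucleosome, and linker H1 histones bind where DNA enters and leaves it. Most core histone genes lie in clusters, are transcribed as cells copy their DNA, and give mRNAs that end in a stem-loop bound by the protein SLBP in place of a poly(A) tail. Variants such as H2A.X, H2A.Z and H3.3 are made outside S phase too, from polyadenylated mRNAs. The growing oocyte stores histone mRNA and protein for the early embryo and carries its own linker histone, H1f8, also called H1foo. The labels name an Affymetrix small-sample labelling assay, a type of method that primes on poly(A) tails, and how it captured tailless histone mRNAs was not tested.

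Checks of the samples gave the following. All 10 samples share 1 description that names CTCF-depleted oocytes, so the groups were taken from the titles. Ctcf dropped on one probe set from 766 ± 74.1 (SD, n = 5) to 20.7 ± 22.7, and on the other from 1001 ± 76.0 to 36.3 ± 33.7. Depleted replicate 5 kept the most Ctcf signal, 61.1 and 95.8. All 10 oocyte markers were above the background of all arrays, and their summed signal ran from 54627 to 60024 in wild type and from 50628 to 58921 in depleted samples. That background is each array's highest signal among 27 Bacillus control probe sets, and it lay between 4.75 and 10.9. The 9 measured markers of granulosa and cumulus cells, which surround the oocyte, summed to 1075 in wild-type replicate 2, to between 365 and 453 on the other wild-type arrays and to between 338 and 471 on the depleted ones. Of these 9, Fshr (23.2 to 47.8) and Ptgs2 (4.11 to 15.02) were called higher and 0 lower, beside 7.26% of all genes called higher and 9.12% lower. Ptgs2 was above background on 0 wild-type and 5 depleted arrays. By sign, 3 of the 9 were above 0 and 6 below. Those below included Has2 (log2 fold change -0.96) and Kitl (-0.45, without overlap), neither called. The part of these cells in the histone values was not tested. The ratio of 3-prime to 5-prime signal of the Actb control, a measure of RNA and labelling quality, ran from 5.97 to 7.81 in wild type and from 5.55 to 8.12 in depleted samples. That of Gapdh ran from 7.73 to 9.75 in wild type and, lower but overlapping, from 6.64 to 8.51 in depleted samples, and the mean log2 ratio over both controls gave p = 0.175 in an exact permutation test (two-sided). What part these ratios have in the histone values was not tested beyond the fit that includes them. Precision is limited by the number of arrays. In such bulk samples fewer transcripts per oocyte and fewer contributing cells cannot be told apart.

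Among the histone transcripts, the core histone genes H3c7 and H2ac19 and the linker histone gene H1f10 were lower in depleted oocytes, and no histone probe set was called higher. Of the 25 probe sets, 16 from 11 genes passed the filter on low signal and were tested. Of these 16, 4 were called lower, in H3c7, H2ac19 (on both of its probe sets) and H1f10, and 0 were called higher (limma, Benjamini-Hochberg adjusted p under 0.05 over all probe sets). At an unadjusted p under 0.05, 5 were lower and 0 higher, but the share of all probe sets at that threshold was not computed. Over all 27022 probe sets tested, 12.6% were called, 7.12% as lower and 5.48% as higher, so the 4 of 16 (25%) are set against a background in which calls were common. The split of that background depends on scaling: 56.5% of all called probe sets were lower on the deposited scaling and 33.3% with each array centred on its median. Among probe sets with a mean signal of at least 100, 2 of 9 histone ones and 2419 of all 11117 were called. With 1 probe set per gene, 3 of 11 histone genes were called, beside 16.4% of all genes. By class, 3 of 5 tested core probe sets, 1 of 6 linker and 0 of 5 variant probe sets were called. Both H2ac19 probe sets are among the 3 core ones, and the difference between classes was not tested. The median log2 fold change was -0.51 over the core, 0.20 over the linker and -0.06 over the variant probe sets tested, beside -0.02 over all probe sets. The core median is itself the value of an H2ac19 probe set. The linker median lies between the values of 2 H1f2 probe sets (0.22 and 0.19). Of the linker probe sets tested, 4 were above 0, all of H1f2 or the near-background H1f6. The 2 below 0 were those of H1f8 (-0.13) and H1f10 (-0.39).

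**Figure D1:**
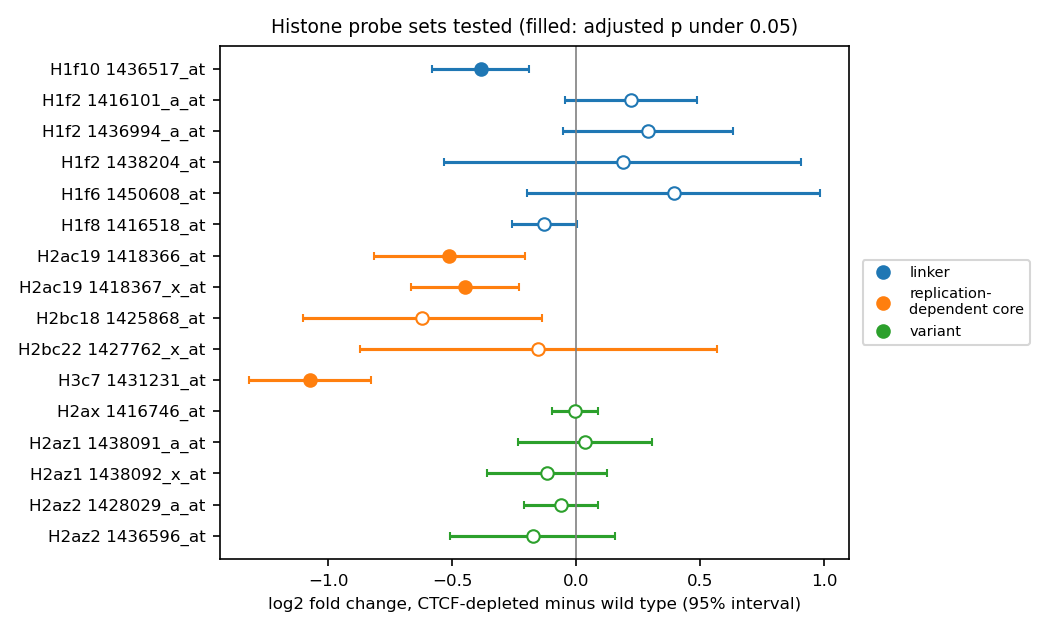
Log2 fold change (horizontal axis, CTCF-depleted minus wild type) with its 95% interval for the 16 histone probe sets tested, coloured by class, with filled points where the adjusted p was under 0.05. The 4 filled points lie below 0, at H3c7 (-1.07), both H2ac19 probe sets (-0.51 and -0.45) and H1f10 (-0.39), and the 5 variant probe sets lie between -0.17 and 0.04.

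Sequences just around the transcription start are shown for the 2 called genes that have an entry in RefSeq's promoter table (build GRCm38.p6), H2ac19 and H1f10, and for the oocyte linker histone H1f8, which was not called. Each runs from 250 bases before to 50 bases after the annotated start. That of H2ac19 is chr3:96240325-96240624 on the minus strand, that of H1f10 chr6:87981433-87981732 on the minus strand and that of H1f8 chr6:115944681-115944980 on the plus strand. Capitals mark CCAAT on either strand (ATTGG where it lies on the other strand), a box common in histone promoters.
H2ac19: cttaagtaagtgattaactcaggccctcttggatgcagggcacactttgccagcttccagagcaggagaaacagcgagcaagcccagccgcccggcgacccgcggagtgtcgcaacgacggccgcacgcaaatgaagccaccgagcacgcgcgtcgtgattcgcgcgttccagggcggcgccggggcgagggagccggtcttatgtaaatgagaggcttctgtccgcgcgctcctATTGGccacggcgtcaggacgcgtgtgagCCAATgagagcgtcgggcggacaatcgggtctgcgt
H1f10: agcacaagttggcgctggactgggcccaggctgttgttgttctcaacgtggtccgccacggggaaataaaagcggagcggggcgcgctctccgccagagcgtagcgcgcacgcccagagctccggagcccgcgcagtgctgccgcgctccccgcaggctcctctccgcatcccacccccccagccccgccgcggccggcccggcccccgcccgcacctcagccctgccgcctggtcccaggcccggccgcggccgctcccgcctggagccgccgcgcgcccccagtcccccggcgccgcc
H1f8: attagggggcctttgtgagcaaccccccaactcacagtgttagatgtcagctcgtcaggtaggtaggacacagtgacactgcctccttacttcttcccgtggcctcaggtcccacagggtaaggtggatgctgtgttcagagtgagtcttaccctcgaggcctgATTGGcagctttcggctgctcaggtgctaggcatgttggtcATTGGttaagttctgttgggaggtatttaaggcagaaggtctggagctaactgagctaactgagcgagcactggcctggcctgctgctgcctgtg

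The H2ac19 and H1f8 windows hold 2 matches to CCAAT each, and the H1f10 window holds 0. The table had a promoter for 15 of the 18 genes, all but H3c7, H2ax and H2bc21. CCAAT was found in 13 of the 15, among them all 5 core histone windows, against 37.4% of all 32851 promoters in the table. TATAAA was found in 5 of the 15 and in 13.6% of all, and the octamer ATTTGCAT, known from H2B promoters, in 2 of the 15 (H2bc18 and H3f3b) and in 1.74% of all. A CTCF core motif was found in 0 of the 15 and in 3.43% of all. Both strands were searched, and these motifs do not contain one another. A match is a description of letters, and no match says only that those letters are not in this window. Base composition also differed between these windows, with 77.7% G and C in H1f10, 63.7% in H2ac19 and 54.7% in H1f8.

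Of the core histones, the H3 gene H3c7 differed most in these data. H3c7 encodes an H3 protein and lies in the large histone cluster on chromosome 13. Its signal was 78.0, 80.1, 89.3, 91.2 and 97.4 in wild-type replicates 1 to 5, and 40.2, 36.4, 49.8, 39.9 and 35.05 in depleted replicates 1 to 5. Every depleted array was thus below every wild-type array. The mean fell from 87.2 ± 8.04 (SD, n = 5) to 40.3 ± 5.77, or to 46.2% of wild type, and on the log2 scale the difference was -1.07 ± 0.12 (SE; limma, adjusted p = 8.63e-06). The exact permutation test over the arrays gave p = 0.00794 (two-sided), the smallest that 5 against 5 arrays allow. The signal was above background on all 10 arrays, and in none of the alternative analyses was the call lost. The synonyms listed for H3c7 include other H3 symbols, such as H3c4 and H3c6, so its probe set may report more than 1 gene. Which transcripts it reports was not tested.

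H2ac19 encodes a canonical H2A and lies in the smaller histone cluster on chromosome 3, next to a near-identical copy, H2ac18, so its probe sets may report both. On the brighter probe set the signal was 148, 146, 133, 171 and 139 in wild type and 132, 112, 98.7, 92.7 and 103.9 in depleted replicates 1 to 5. The groups did not overlap, although depleted replicate 1 came within the wild-type SD of the lowest wild-type array. The mean was 147 ± 14.3 (SD, n = 5) in wild type and 108 ± 15.3 in depleted oocytes, with a log2 difference of -0.45 ± 0.10 (SE; limma, adjusted p = 0.00765).

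The other H2ac19 probe set read 72.8, 102.8, 84.3, 104.2 and 88.4 in wild type and 62.4, 66.5, 85.6, 55.1 and 47.6 in depleted oocytes. Here depleted replicate 3 was above 2 of the 5 wild-type arrays. The log2 fold change was -0.51 ± 0.14 (SE; limma, adjusted p = 0.0260). This second call was lost with any 1 of 4 arrays left out, wild-type replicates 2 or 4 or depleted replicates 4 or 5 (adjusted p from 0.0671 to 0.0724), and with arrays centred on their medians (adjusted p = 0.0562).

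Groups did not overlap for 3 of the 16 tested probe sets, H3c7, the brighter H2ac19 probe set and H1f10, all lower in depleted oocytes, beside 6.38% of all probe sets tested, and 0 were higher without overlap, beside 4.69%. The remaining tested core probe sets belonged to H2B genes. H2bc18, an H2B gene of the chromosome 3 cluster, read 19.99, 17.1, 12.1, 16.5 and 25.7 in wild type and 15.6, 7.95, 13.6, 11.04 and 7.37 in depleted oocytes. Depleted replicates 1 and 3 were thus above the lowest wild-type array, and the log2 fold change of -0.62 ± 0.23 (SE) did not pass (limma, adjusted p = 0.0918). H2bc22, of the chromosome 13 cluster, read 45.7, 7.02, 40.2, 33.3 and 21.6 in wild type and 22.2, 17.7, 31.6, 27.5 and 17.1 in depleted oocytes. Wild type spread widely there, with replicate 2 lowest, and the log2 fold change was -0.15 (95% interval -0.87 to 0.57). The other core histone probe sets, for H2bc21 (2), H3c4 and H3c11, were below the filter.

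**Figure D2:**
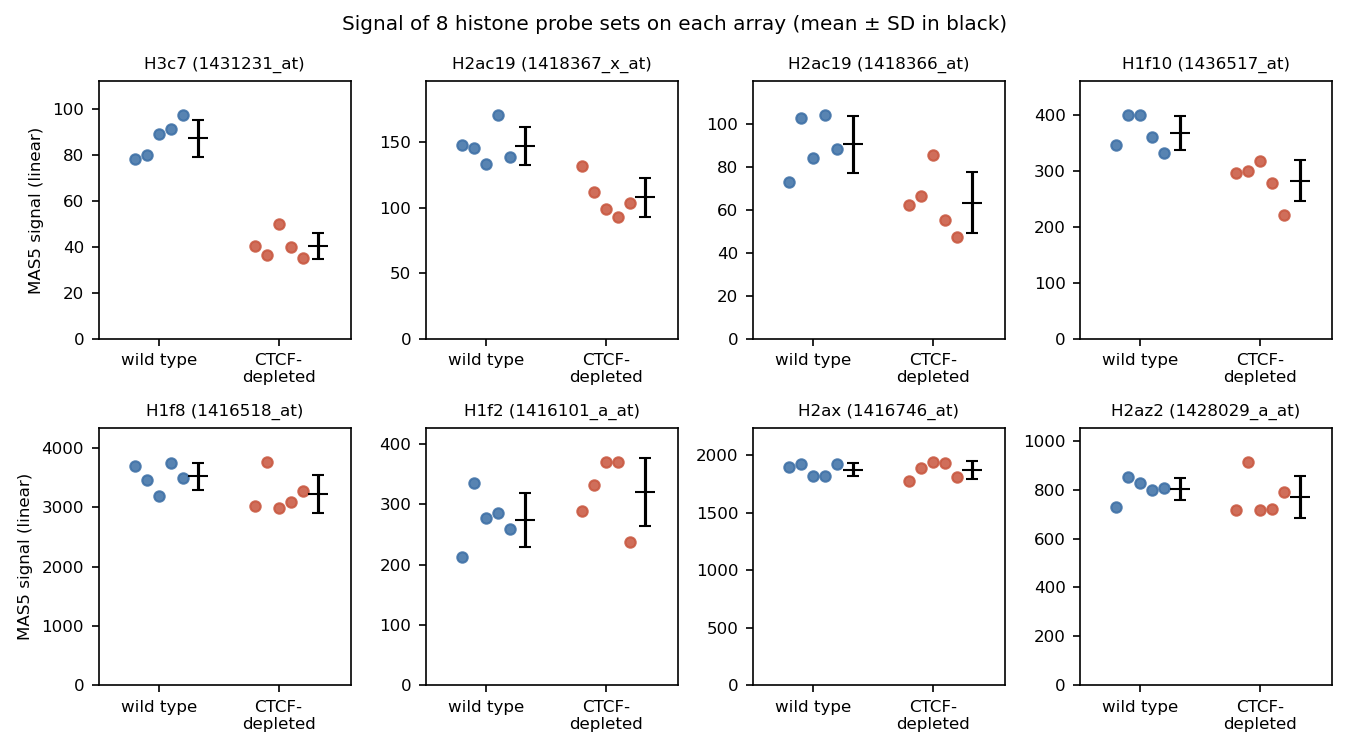
Linear MAS5 signal (vertical axis) of 8 histone probe sets on each of the 5 wild-type (blue) and 5 CTCF-depleted (red) arrays, points in order of replicate number, with mean and SD in black. For H3c7 the depleted arrays lie between 35.05 and 49.8 and the wild-type arrays between 78.0 and 97.4, while for H2ax the wild-type arrays (1820 to 1928) lie inside the range of the depleted ones (1777 to 1947).

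Of the linker histones, H1f10 alone was called among 6 tested probe sets. H1f10, also called H1fx, is a replication-independent linker histone. It read 346, 399, 400, 361 and 332 in wild type and 295, 299, 317, 278 and 221 in depleted replicates 1 to 5. All depleted arrays lay below all wild-type arrays, depleted replicate 3 and wild-type replicate 5 being the closest. The mean fell 1.30-fold, from 368 ± 31.0 (SD, n = 5) in wild type to 282 ± 37.0, with a log2 difference of -0.39 ± 0.09 (SE; limma, adjusted p = 0.00984). Its nearest neighbours on chromosome 6 were looked up after its values were seen. The genes next to it on either side, Hmces and Rab7, gave 0.05 ± 0.04 (SE) and -0.08 ± 0.04 on the log2 scale and were not called. Rpn1, a step beyond Rab7, was called lower, at -0.23 ± 0.06 (limma, adjusted p = 0.0177), beside 9.12% of all genes called lower. Copg1, a step beyond Hmces, gave -0.04, and Gata2, next after Rpn1, gave 0.18, and neither was called.

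H1f8, the oocyte linker histone, read 3704, 3461, 3187, 3754 and 3495 in wild type and 3025, 3772, 2979, 3095 and 3269 in depleted oocytes. Depleted replicate 2 was the highest of all 10 arrays and the other 4 depleted arrays were at or below 3269. The log2 fold change was -0.13 (95% interval -0.26 to 0.003) and was not called (limma, adjusted p = 0.209). Without depleted replicate 2 it was -0.19 and was called (adjusted p = 0.0225), and with the 3-prime to 5-prime ratio of each array in the fit it was -0.21 (adjusted p = 0.0175). That replicate had the lowest such ratio, a mean log2 value of 2.60 over Actb and Gapdh against 2.78 to 3.11 on the others. With arrays centred on their medians the log2 fold change of H1f8 was -0.04 (limma, adjusted p = 0.817). In 22 of the 24 alternative analyses H1f8 was not called. The 95% interval of the H1f8 fold ran from 0.836 to 1.002.

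H1f2, a replication-dependent linker histone of the chromosome 13 cluster, had 3 tested probe sets and none was called. On the brightest it read 212, 335, 277, 286 and 259 in wild type and 289, 332, 370, 371 and 238 in depleted oocytes. Groups overlapped widely, the log2 fold change was 0.22 (95% interval -0.05 to 0.49), and the other 2 probe sets gave 0.29 and 0.19. The last of these is dim, and without wild-type replicate 1 it turned to -0.21. All 5 tested core probe sets, 2 of them of H2ac19, were below 0, beside 14599 of all 27022 probe sets tested. Of these 5, H2bc22 turned to 0.12 with the 3-prime to 5-prime ratio in the fit, and the difference from the linker probe sets was not tested. H1f6, a linker histone of the testis, lay near background, above it on 2 arrays of each group (log2 fold change 0.39, interval -0.20 to 0.98). H1f4 was above background on 0 arrays, and the testis linker H1f7 on 1 wild-type and 0 depleted arrays for one probe set and on none for the other.

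Among the tested variant probe sets, H2ax varied least between arrays and the brighter H2az1 probe set most. The SD was 2.85% of the mean in wild type and 4.02% in depleted samples for H2ax. For that H2az1 probe set it was 17.4% and 21.3%. H2ax, which encodes the H2A variant phosphorylated at DNA breaks, read 1899, 1928, 1820, 1821 and 1922 in wild type and 1777, 1891, 1947, 1938 and 1815 in depleted oocytes. The groups had means of 1878 ± 53.6 and 1874 ± 75.3 (SD, n = 5), and the log2 fold change was -0.004 with a 95% interval from -0.10 to 0.09. For H2ax, changes beyond 0.935-fold and 1.06-fold fell outside that interval.

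The 2 genes of H2A.Z, a variant found at promoters, were also not called. H2az2 read 730, 852, 828, 799 and 808 in wild type and 717, 916, 717, 720 and 790 in depleted oocytes on its brighter probe set, with depleted replicate 2 highest (log2 fold change -0.06, interval -0.21 to 0.09). Its dimmer probe set gave -0.17. H2az1 read 391, 528, 392, 364 and 353 in wild type and 558, 332, 431, 423 and 349 in depleted oocytes, so that wild-type replicate 2 and depleted replicate 1 stood above the rest, and its log2 fold change was 0.04 (interval -0.23 to 0.31). Its other probe set gave -0.12 (interval -0.36 to 0.13; adjusted p = 0.587). Wild-type replicate 2, the array with the high granulosa marker signal, was the higher of these in wild type, and the part of those cells in its H2az1 value was not tested. Without that array the log2 fold change on the first H2az1 probe set was 0.14 (adjusted p = 0.541).

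Genes of H3.3, the variant placed into chromatin outside replication, were represented among single-symbol probe sets only by 2 dim ones. H3f3a was above background on 2 wild-type and 1 depleted array and H3f3b likewise, and both were below the filter. In all, 9 of the 25 histone probe sets were below it, with mean signals from 1.007 to 4.87, and 5 of these were above background on no array. Nothing can be said of a change in those 9 at this sensitivity.

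Because histone genes are so alike, 24 further probe sets were annotated to several genes of which at least 1 had a histone symbol. They lie outside the 25, and no single gene is named from them. Of 19 that passed the filter, 3 were called lower and 0 higher (limma), or 15.8% against the 12.6% of all probe sets. At an unadjusted p under 0.05, 6 were lower and 1 higher, with no share of all probe sets computed for comparison. The 3 calls were 1 each among probe sets of H3, H4 and H2B genes.

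The called H3 probe set, shared by 8 genes, read 81.2, 84.1, 77.7, 94.3 and 77.7 in wild type and 38.9, 49.3, 50.3, 50.4 and 45.2 in depleted oocytes. It fell by 0.80 ± 0.11 on the log2 scale (SE; adjusted p = 8.65e-05), with no overlap. Like the H3c7 probe set described above, it is annotated to H3 genes, so the 2 probe sets need not report separate transcripts. The called H4 probe set, shared by 13 genes, read 151, 176, 171, 149 and 173 in wild type and 104.4, 96.6, 100.4, 101.8 and 89.3 in depleted oocytes. This was a log2 fold change of -0.72 ± 0.08 (adjusted p = 2.05e-05), again without overlap.

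The called H2B probe set, shared by 3 genes, had a mean of 1399 ± 54.2 in wild type and 1170 ± 76.1 in depleted oocytes (SD, n = 5), a log2 fold change of -0.26 ± 0.05 (adjusted p = 0.00346). The other tested probe sets of these families were not called, and their values varied. Of the other H3 probe sets, one shared by 8 genes gave -0.69 (adjusted p = 0.102), one by 12 genes -0.08 (interval -0.30 to 0.15) and one by 2 genes -0.19. Further H4 probe sets with the same 13 genes gave -0.49 (adjusted p = 0.0625), -0.28 and 0.03 (interval -0.12 to 0.18 for the last). Other H2B probe sets gave -0.14 (adjusted p = 0.180) and -0.005. The single H2A probe set tested gave 0.48 (interval 0.13 to 0.84; adjusted p = 0.0736). Which transcripts each of these probe sets reports was not tested.

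Among the 5 probe sets shared by H3.3 genes, 0 were called and 0 had an unadjusted p under 0.05 (limma). Their log2 fold changes lay between -0.09 and 0.008, with intervals within -0.18 and 0.12. The brightest read 6211, 6229, 6318, 6446 and 6729 in wild type and 5972, 5991, 6628, 5671 and 5754 in depleted oocytes, overlapping through depleted replicate 3. Those of the 2 shared probe sets of H2A.Z were 0.04 and -0.12.

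**Figure D3:**
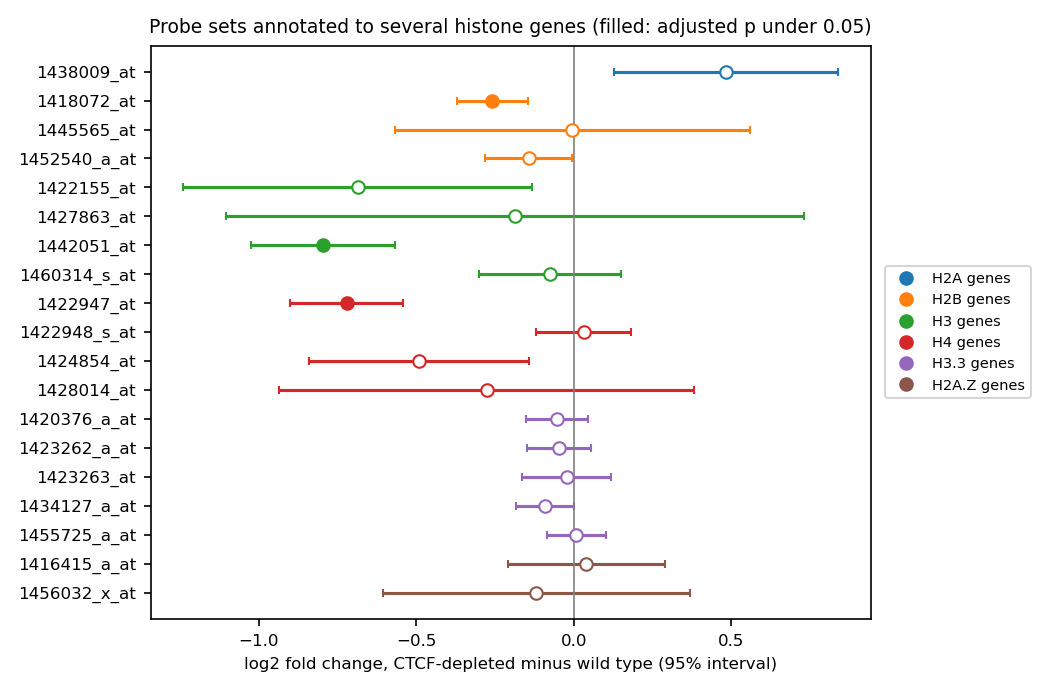
Log2 fold change (horizontal axis, CTCF-depleted minus wild type) with its 95% interval for the 19 tested probe sets annotated to several genes, coloured by histone family, with filled points where the adjusted p was under 0.05. The 3 filled points, 1 each for H2B (-0.26), H3 (-0.80) and H4 (-0.72), lie below 0, and the 5 H3.3 probe sets lie between -0.09 and 0.008.

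Some histone genes carry symbols that the rule does not take, and they were looked up after the annotation was seen. H2aj, an H2A gene outside the clusters, read 650, 630, 651, 639 and 669 in wild type and 460, 412, 443, 416 and 441 in depleted oocytes. The groups were far apart for its spread, and it fell 1.49-fold (log2 fold change -0.58 ± 0.05, SE; limma, adjusted p = 1.86e-06), with -0.30 and -0.53 on its other probe sets. Macroh2a1, a variant with a large extra domain that is enriched on the inactive X chromosome, had -0.25 (interval -0.46 to -0.05; adjusted p = 0.105). H2aw, an H2A gene, had -0.04, Macroh2a2 -0.33 and Macroh2a3 -0.04, and these 3 were not called. The other tested probe set of H2aw gave -0.34, and Macroh2a3 was above background on only 1 array of each group.

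Of 6 histone-like and sperm chromatin genes, 3 were tested, 2 were called higher and 0 lower, beside 7.26% of all genes called higher and 9.12% lower. Cenpa, the H3 variant of the centromere, rose 1.19-fold, from 939 ± 57.0 to 1114 ± 57.5 (SD, n = 5; limma, adjusted p = 0.00675). Its values were 895, 1014, 986, 889 and 912 in wild type and 1053, 1120, 1058, 1165 and 1175 in depleted oocytes, without overlap. Prm2, a protamine that replaces histones in sperm, rose from 69.4 ± 6.03 to 97.6 ± 9.39 (adjusted p = 0.00433), and Prm1, the other protamine, gave -0.69 and was not called.

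Genes that make and process replication-dependent histone mRNA were mostly not called. Of 25 such genes, all tested, 3 rose and 1 fell, or 16%, beside 16.4% of all 13811 genes (7.26% higher and 9.12% lower), and their median log2 fold change was -0.01 beside -0.02 over all genes. Slbp, the stem-loop binding protein, had means of 5578 ± 100.5 and 5489 ± 232 (SD, n = 5) and a log2 fold change of -0.02 (interval -0.10 to 0.05). Npat, the cyclin E-dependent activator of histone transcription, had 0.11 and was not called.

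The genes that rose were Lsm11, Zfp473 and Snrpb. Lsm11, a protein of the U7 small nuclear ribonucleoprotein that takes part in cutting the end of histone mRNA, read 321, 299, 259, 302 and 266 in wild type and 388, 344, 391, 355 and 354 in depleted oocytes. It rose 1.27-fold without overlap (limma, adjusted p = 0.00507), and its other probe set gave 0.88. Zfp473, a zinc finger protein that binds the U7 particle with the stem-loop protein, rose 1.21-fold from 565 ± 42.7 to 684 ± 34.6 (SD, n = 5; adjusted p = 0.00704). Snrpb, a core protein of spliceosomal and U7 particles, rose 1.31-fold, with depleted replicate 5 inside the wild-type range (adjusted p = 0.0225). Ncbp2, a subunit of the cap-binding complex, fell 1.20-fold (adjusted p = 0.0296). The list had 0 lower calls with arrays centred on their medians (5 higher), with the 3-prime to 5-prime ratio in the fit, without the filter, without the intensity trend, and without wild-type replicate 2 or 5. Lsm10, the other U7-specific Sm-like protein, gave 0.04 ± 0.05 (SE) on the log2 scale, and Snrpd3, another Sm protein, gave -0.05, with -0.79 and 0.06 on its other probe sets. Neither was called.

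Of the histone chaperones, which carry histones to and from DNA, 20 of the 25 listed genes were analysed, and 0 rose and 2 fell (limma), or 10% beside 16.4% of all genes. Anp32e, a chaperone that removes H2A.Z, read 219.5, 238, 238, 226 and 246 in wild type and 188, 155, 182, 201 and 197 in depleted oocytes. It fell 1.26-fold without overlap (adjusted p = 0.00911). Asf1a, an H3 and H4 chaperone, fell 1.11-fold from 3459 ± 139 to 3125 ± 127 (SD, n = 5; adjusted p = 0.0303). With arrays centred on their medians neither of these 2 falls was called. Hira and Daxx, chaperones of H3.3, had 0.16 and 0.15, and Nasp, a chaperone of H3 and H4 and of linker histones, had -0.15, none of them called. Another probe set disagreed in sign for Hira (-0.56) and for Nasp (0.13).

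**Figure D4:**
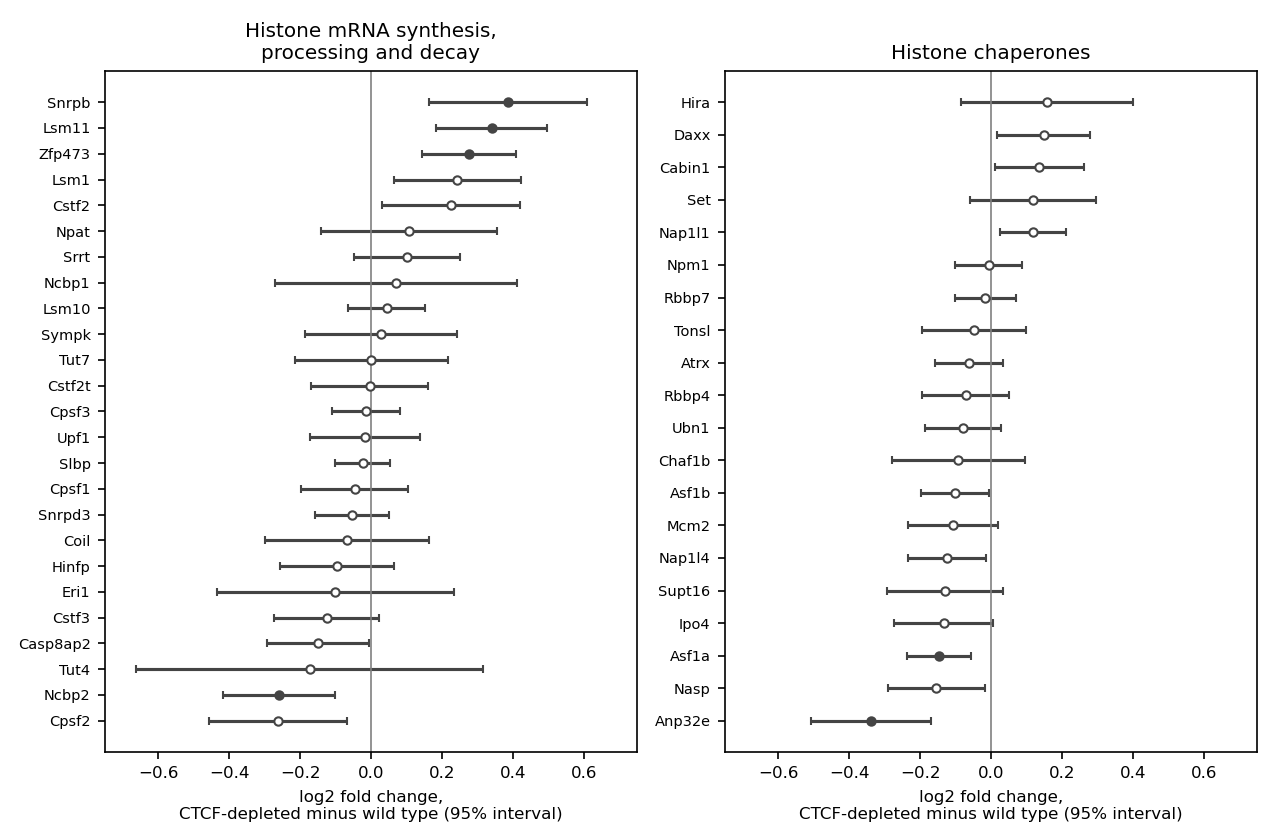
Log2 fold change (horizontal axes, CTCF-depleted minus wild type) with its 95% interval for 25 genes of histone mRNA synthesis, processing and decay (left) and 20 histone chaperone genes (right), 1 probe set per gene, sorted by value, with filled points where the adjusted p was under 0.05. Snrpb (0.39), Lsm11 (0.34) and Zfp473 (0.28) are the filled points above 0, and Ncbp2, Asf1a and Anp32e those below.

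Of 6 listed genes of proliferating cells, 0 rose and 1 fell (limma), or 16.7%, beside 16.4% of all genes. Rrm2, the subunit of ribonucleotide reductase that is made in S phase, read 1214, 1244, 1369, 1230 and 1447 in wild type and 732, 689, 792, 723 and 722 in depleted oocytes. This was a log2 fold change of -0.83 ± 0.06 (SE; adjusted p = 8.47e-08), with no overlap and with -0.68 and -0.79 on its other probe sets. Mki67, Cdt1, Pole, E2f1 and Gins1 had values between -0.05 and 0.05, and none was called, although a second probe set gave 0.32 for E2f1 and -0.24 for Gins1. The summed signal of the 6 was 9752 to 10471 in wild type and 9156 to 9928 in depleted oocytes, and any part of proliferating cells in the histone values was not tested.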

How the data were processed

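RNA was purified with a Picopure kit and labelled with biotin, per the labels. The deposited table gives linear intensity, computed by the authors with MAS5 per the submitters' processing notes; version and settings are not given in the sources used here. MAS5 subtracts mismatch signal, so dim values vary. Every array had the same mean (150.001) once its extreme values were trimmed, which assumes equal mean signal between groups.

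Groups came from sample titles. Without 64 control probe sets, log2 values were taken after adding an offset of 2.47, the 25th percentile of signal, so folds of dim genes are understated. Probe sets under the 40th percentile of mean log2 signal (a signal of about 5.13) were left out. Groups were compared with limma 3.58.1 under R 4.3.3, with an intensity trend and Benjamini-Hochberg adjustment over 27022 probe sets. A listed gene was represented by its brightest probe set. Symbols came from the platform annotation: 34945 probe sets had 1 symbol, 932 several and 9160 none. All 25 histone probe sets matched RefSeq genes (GRCm38.p6) by gene ID. The arrays' genome build is not given in the sources used here. Replicate numbers were not used as pairs in the main fit. Deviations of same-numbered arrays correlated by 0.0024 to 0.051, which cannot show whether the samples were paired.

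The members and lists were chosen with earlier results of these data known. The rule for names took every called histone probe set, the 6 brightest of each class, all probe sets of listed linker and variant genes, both Ctcf probe sets and up to 4 genes of each list by smallest adjusted p. It also allowed up to 3 genes of similar pattern, which are not reported. Other list genes, neighbours, shared probe sets and histone genes under other symbols were chosen after their values or annotation were seen. On simulated data with 200 of 27022 probe sets changed, the fit recovered 38% of log2 changes of 0.5 and 70% of changes of 1, with 5 false among 113 calls. In the real data 3406 were called, and the adjusted cut-off depends on how many change, so recovery there can differ. Alternatives were other offsets, filters, scalings, variance models and thresholds, a replicate block, a covariate, removal of shared probe sets and of each array. Intervals are 95% intervals.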

Additional observations from a re-analysis of the deposited data

Results flagged for a closer look

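Of 52 groups of 5 arrays examined, 5 held 1 array far from the other 4 by Dixon's criterion, and chance alone gives about 1 in 20. In wild-type replicate 1 the dimmest H1f2 probe set read 1.54 against 12.7 to 13.9 on the other wild-type arrays. In wild-type replicate 2, H2az1 read 528 on its brighter probe set against 353 to 392. In depleted replicate 5, Ctcf read 61.1 against 7.07 to 14.2 on one probe set and 95.8 against 16.7 to 29.3 on the other. In depleted replicate 2, Ncbp2 read 518 against 645 to 693.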

How the results depend on the processing

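The calls of H3c7, the brighter H2ac19 probe set and H1f10 held in all 23, 23 and 24 alternatives in which they could be tested, with log2 fold changes from -1.15 to -0.88, from -0.52 to -0.36 and from -0.43 to -0.30. No called histone probe set reversed its direction. The dimmer H2ac19 probe set lost its call in 8 of 23 alternatives, among them no intensity trend (adjusted p = 0.0702) and the covariate (0.0661). Leaving out any 1 array, 3 to 5 histone probe sets were called, the median over the tested ones ran from -0.13 to -0.07, and 2743 to 3314 of all probe sets were called. With a mean signal of at least 100, 2 of 9 histone probe sets were called, beside 2419 of all 11117 then tested. The histone median was -0.28 without probe sets ending in _s_at, _x_at or _a_at, when 10 were tested. All called probe sets numbered 1821 at an adjusted p under 0.01 and 2263 with 1 probe set per gene. Histone mRNA processing genes called were 2 at that stricter threshold, 2 without the intensity trend and 2 without the shared probe sets, and 3 to 5 with single arrays left out. Chaperones called were 0 under median centring, 1 with the covariate, at the stricter threshold, with probe sets averaged per gene, without the filter, without the trend and without the shared probe sets, and 1 to 2 with single arrays left out. Of the sperm chromatin genes and Cenpa, 1 was called with the mean over probe sets, with a mean signal of at least 100 and without shared probe sets. The cause of these shifts was not tested. With the replicate number as a block, 3581 probe sets and 4 histone probe sets were called, and no histone call changed. Under median centring 2179 of all called probe sets were higher and 1086 lower. Signals near background limit what can be said of 9 histone probe sets.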
